A study of Mus musculus with 8 samples.

Results

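The transcripts described here are those encoded by the mouse mitochondrial DNA, measured by RNA sequencing of whole hearts. They were chosen by symbol alone: every gene whose GENCODE M21 symbol begins with mt- was taken, which gave 37 of the 45706 genes of the table, namely 13 coding genes, 2 ribosomal RNA (rRNA) genes and 22 transfer RNA (tRNA) genes. The hearts came from 8-week-old male mice of 3 genotypes. The knockout group, called cKO (n = 4), was Elmsan1 fl/fl;aMHC-Cre+/-, the floxed controls (n = 2) were Elmsan1 fl/fl, and the Cre controls (n = 2) were aMHC-Cre+/-. The cKO and floxed hearts therefore share the floxed alleles, and the cKO and Cre hearts share the transgene. The aMHC promoter is active in cardiomyocytes, so the other cells of the heart are expected to keep Elmsan1, a subunit of a histone deacetylase complex. The strain was not stated in these sources.

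The mitochondrial genome is a small circle that is copied and read inside the organelle by its own polymerase, Polrmt, with the help of Tfam and Tfb2m. Both strands are read as long precursors, and most messenger and ribosomal RNAs are released by cutting out the tRNAs that lie between them. All 13 coding genes specify subunits of the respiratory chain: 7 belong to complex I, 1 to complex III, 3 to complex IV and 2 to the ATP synthase, complex V. These subunits assemble with others made from nuclear genes, and heart muscle is among the tissues richest in them.

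Neighbouring mitochondrial genes can share bases, and several have near-identical copies in the nuclear genome, so the sequences below show where a count could belong to more than 1 gene. All come from the GENCODE M21 transcripts with GRCm38 positions, and are written 5′ to 3′. Printed first are the whole mt-Atp8 transcript (chrM:7766-7969, plus strand), whose 43 capitals lie inside mt-Atp6, and the last 90 bases of mt-Nd4l (chrM:10084-10173, plus strand), whose 7 capitals lie inside mt-Nd4. The last 90 bases of mt-Nd5 (chrM:13476-13565, plus strand) end in 14 capitals that lie inside mt-Nd6, which is read from the opposite strand. The tRNA mt-Ts1 (chrM:6870-6938, minus strand) ends in 3 capitals that lie opposite the end of mt-Co1.
mt-Atp8: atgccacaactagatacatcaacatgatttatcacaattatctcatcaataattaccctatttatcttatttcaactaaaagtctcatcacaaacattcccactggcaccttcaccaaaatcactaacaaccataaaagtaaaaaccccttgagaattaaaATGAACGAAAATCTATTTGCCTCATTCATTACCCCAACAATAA
mt-Nd4l: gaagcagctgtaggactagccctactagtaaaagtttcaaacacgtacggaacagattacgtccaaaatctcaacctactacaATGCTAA
mt-Nd5: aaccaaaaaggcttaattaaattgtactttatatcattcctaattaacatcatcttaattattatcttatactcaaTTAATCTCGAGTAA
mt-Ts1: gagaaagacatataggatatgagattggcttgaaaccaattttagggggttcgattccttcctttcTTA

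The next pair shows how little separates a mitochondrial gene from its nuclear copy: the first 47 bases of mt-Nd3 (chrM:9459-9505, plus strand) and of Gm28438 (chr1:24613073-24613119, minus strand). The capital marks the base that differs, T3C, counted from 1 at the 5′ end of the transcript with the base of mt-Nd3 first.
mt-Nd3: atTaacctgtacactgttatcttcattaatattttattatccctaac
Gm28438: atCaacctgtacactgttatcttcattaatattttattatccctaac
Over 345 aligned bases the pair was 99.71% identical. A search of the nuclear transcripts for matches of at least 95% identity over at least 100 bases found 11 copies of 9 coding genes. A block on the minus strand of chromosome 1, from 24611535 to 24616197, holds 7 of them. Among these, Gm28661 matched mt-Co2 over 681 bases, Gm28437 matched mt-Co3 over 783 and Gm10925 matched mt-Atp6 over 678, each with no mismatch. Gm29216 matched mt-Co1 over 483 of its 1545 bases at 99.79%.

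The copies held many of the counts. Of the counts assigned to mt-Nd3 or its copy, 73.4 to 82.8% were at the copy, and for mt-Co2 the range over the 8 libraries was 54.9 to 68.2%. It was 32.7 to 43.0% for mt-Co3 and 8.13 to 26.6% for mt-Atp6. For mt-Co1 the copies took 13.24, 8.185, 13.88 and 16.4% in the cKO hearts, 2.82 and 2.748% in the floxed hearts, and 3.379 and 3.06% in the Cre hearts, so that every cKO heart was above every control heart. For mt-Nd4 the order was the opposite, with 0.141 to 0.282% at the copy in cKO and 0.433 to 0.954% in controls; the copy, Gm28439, was itself lower (log2 -2.03, SE 0.48, edgeR adjusted p = 0.0139, by the test described below). For mt-Nd4l the share was at most 6.32%, and for mt-Nd2 and mt-Nd5 it was under the lowest share of mt-Nd4. The rRNA genes, mt-Nd1, mt-Nd6, mt-Cytb and mt-Atp8 had no copy by this search, which covered annotated transcripts alone. mt-Atp8 starts between mt-Co2 and mt-Atp6, whose copies are neighbours in the chromosome 1 block. The bases between those copies (24614651 to 24614885) were not searched, so reads of mt-Atp8 may face the same ambiguity with no copy to sum. A read that fits both places cannot be assigned by its sequence, so each result below is given for the gene as deposited and, where it matters, summed with its copies.

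**Figure D1:**
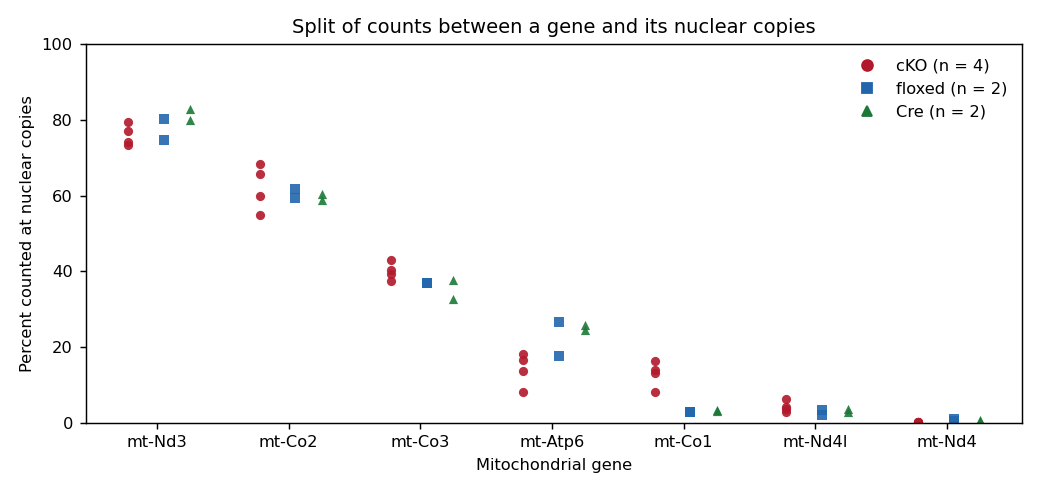
Percent of the counts of a mitochondrial gene and its near-identical nuclear copies that was assigned to the copies (y axis), for 7 genes (x axis), with 1 point per heart. The cKO hearts sit above the controls for mt-Co1 (8.185 to 16.4% against 2.748 to 3.379%) and below them for mt-Nd4 (0.141 to 0.282% against 0.433 to 0.954%), and the groups overlap for mt-Nd3, mt-Co2, mt-Co3, mt-Atp6 and mt-Nd4l.

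Libraries held 17509564 to 25833259 estimated counts, and 3 counts, the limit that a count of 0 allows, came to 0.116 to 0.171 CPM, the unit of library-scaled counts used throughout. Elmsan1 was at 11.99 to 15.5 CPM in cKO hearts and 25.24 to 28.61 CPM in controls. Levels of 7 cardiomyocyte markers summed to 42700 to 50800 CPM in cKO and 50100 to 53200 in controls, with Myh6 and Tnnt2 high in all 8 libraries, and the liver markers reached at most 0.609 CPM. Of these 7 markers 2 rose and 2 fell by the test described below (28.6% each), beside 25.6% up and 26.5% down for all tested genes. With an offset for length and GC content, also described below, 0 rose and 3 fell (42.9%), beside 20.4% up and 24.5% down. The summed levels of 5 macrophage markers (162 to 218 against 100 to 117 CPM), 6 endothelial markers (821 to 989 against 662 to 732) and 4 atrial markers (4410 to 9830 against 1650 to 3060) were higher in cKO. Those of 6 fibroblast markers (749 to 911 against 564 to 761), 5 smooth muscle and pericyte markers (487 to 798 against 593 to 664) and 3 erythroid markers (324 to 845 against 301 to 485) overlapped. By the test described below 4 macrophage markers rose and 0 fell, 3 endothelial markers rose and 1 fell, and 4 atrial markers rose. The endothelial marker that fell was Kdr (log2 -0.47, edgeR adjusted p = 0.0134). Egfl7 rose most of these 6 (log2 1.4), and Tek and Pecam1 were not called. Adgre1, a macrophage marker, was at log2 -0.27 and not called (edgeR adjusted p = 0.175). With the offset 3 macrophage, 4 endothelial and 3 atrial markers rose and none fell. The brown fat markers Ucp1 and Cidea, from a tissue also rich in mitochondria, varied from 20.4 to 146 CPM in cKO and 15.1 to 57.8 in controls, and neither was called. Of 3 skeletal muscle markers Myh4 was at 0 in every library and the sum was at most 1.16 CPM. The part of these cell types in the results below was not tested, and in whole heart fewer cells of a type and less RNA per cell cannot be told apart.

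Transcripts also differed by length. Among nuclear coding genes the median log2 fold change, cKO against the mean of both control groups, was 0.81 for 524 genes under 1 kb and -0.23 for 5362 genes over 4 kb. Genes under 1 kb gave 10.7 to 13.4% of nuclear coding counts in cKO and 6.56 to 6.74% in controls. Most mitochondrial genes are short, so a per-library offset for length and GC content was fitted on 13731 nuclear coding genes. Values with this offset are given beside results of mitochondrial genes whose call it changes or whose fold it moves by more than 1.5 times. For nuclear genes, the copies included, single values with the offset are not given, and counts by list are given for some lists. Within cKO, replicates 2 and 4 stood apart from 1 and 3 in rRNA (6744 and 6192 CPM of mt-Rnr2 against 3546 and 3407) and in mt-Ts1 (17 and 16 raw counts against 151 and 182). Replicate 2 alone had a high total of mitochondrial counts.

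The mitochondrial transcripts did not move together. Of the 17 that passed the filter on low counts, 3 rose in cKO against the mean of the control groups (mt-Rnr1, mt-Rnr2 and mt-Nd3), 6 fell (mt-Nd2, mt-Co1, mt-Atp8, mt-Nd5, mt-Nd6 and mt-Nd4l) and 8 were not called, by the quasi-likelihood test of edgeR at a Benjamini-Hochberg adjusted p of 0.05 over 15289 genes. That is 52.9% called, beside 52.1% for the whole set of tested genes (25.6% up and 26.5% down). The median log2 fold change was -0.30 for these 17 genes and 0.04 for all tested genes. All cKO hearts lay above all controls for 1 gene, mt-Rnr1, and below them for 3, mt-Atp8, mt-Nd5 and mt-Nd4l. Such separation was found for 49.3% of all tested genes, 23.4% with cKO above and 25.9% with cKO below. Summing each gene with its nuclear copies left the same genes called in the same directions. With the length and GC offset 1 gene was called up, mt-Rnr1, and 10 down, the 6 named above with mt-Nd1, mt-Nd4, mt-Co2 and mt-Cytb. Under that offset 44.9% of all tested genes were called, 20.4% up and 24.5% down. Below, some calls are said to be lost when 1 library is left out. A control group then holds 1 heart where the library left out is a control, and that heart is assumed to vary like the other groups.

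**Figure D2:**
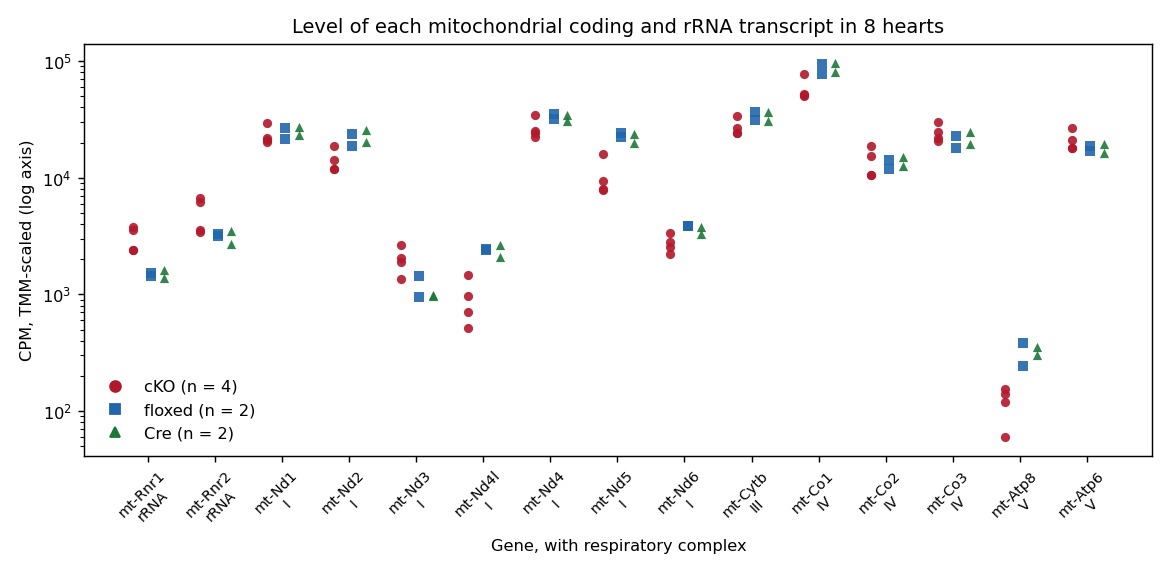
Level of 15 mitochondrial genes in each heart as TMM-scaled CPM on a log axis, grouped by rRNA and by respiratory complex on the x axis, with 1 point per heart. For mt-Nd5, mt-Nd4l and mt-Atp8 the cKO points lie below all control points, and for mt-Rnr1 they lie above.

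The complex I genes held the widest range of changes. This complex takes electrons from NADH and pumps protons, and mt-Nd2, mt-Nd4 and mt-Nd5 encode pump-like subunits of its membrane arm. Of its 7 genes 4 fell, 1 rose and 2 were not called. mt-Nd5 was at 7943, 15870, 9336 and 7791 CPM in the cKO hearts, 22300 and 24310 in the floxed hearts, and 19700 and 23720 in the Cre hearts. It was 2.2-fold lower (log2 -1.14, SE 0.22, edgeR adjusted p = 0.0021), and the groups did not overlap, with cKO replicate 2 the highest of the cKO hearts.

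mt-Nd4l, whose product is carried on 1 messenger RNA with that of mt-Nd4, was at 708.9, 1455, 969.1 and 512.3 CPM in the cKO hearts, 2403 and 2468 in the floxed hearts, and 2089 and 2647 in the Cre hearts. It was 2.64-fold lower (log2 -1.40, SE 0.31, edgeR adjusted p = 0.00626), again with no overlap. With the offset it was at log2 -2.38 (edgeR adjusted p = 0.000964). mt-Nd2 was at 11990, 18660, 14050 and 11770 CPM in the cKO hearts, 18630 and 23710 in the floxed hearts, and 20060 and 25430 in the Cre hearts. In this gene 3 cKO hearts were below all controls, and replicate 2 was level with the lower floxed heart. The fall of mt-Nd2 was 1.55-fold (log2 -0.64, SE 0.17, edgeR adjusted p = 0.00831).

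mt-Nd6 is the only coding gene of the opposite strand. Its level was 2223, 3337, 2555 and 2835 CPM in the cKO hearts, 3830 and 3865 in the floxed hearts, and 3290 and 3772 in the Cre hearts. Replicate 2 of cKO overlapped the lower Cre heart, and the fall was 1.35-fold (log2 -0.43, SE 0.13, edgeR adjusted p = 0.0168). This call was lost without cKO replicate 3 or Cre replicate 2 (highest edgeR adjusted p = 0.0567). With the offset the log2 fold change was -1.14 (edgeR adjusted p = 5.25e-05), near the -1.19 of mt-Nd5. Since no source used here gives the strand setting of the counting, its counts may hold reads of the facing strand.

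mt-Nd3 was the complex I gene that rose. It was at 1345, 2629, 2067 and 1890 CPM in the cKO hearts, 942.3 and 1429 in the floxed hearts, and 971.3 and 995.9 in the Cre hearts, and the groups overlapped by 1 heart each. The rise was 1.84-fold as deposited (log2 0.88, SE 0.20, edgeR adjusted p = 0.00509). Summed with the copy printed above, mt-Nd3 was at 6574, 9893, 7952 and 8243 CPM in the cKO hearts, 4750 and 5654 in the floxed hearts, and 4837 and 5789 in the Cre hearts. In these sums every cKO heart was above every control heart, and the rise was 1.55-fold (log2 0.64, SE 0.14, edgeR adjusted p = 0.00273). With the length and GC offset the rise was gone: the deposited gene was at log2 -0.06 (edgeR adjusted p = 0.787) and the sum at -0.29 (edgeR adjusted p = 0.061). mt-Nd1 (log2 -0.08, SE 0.15, edgeR adjusted p = 0.669) and mt-Nd4 (-0.32, SE 0.15, edgeR adjusted p = 0.0829) did not pass the threshold. Their levels were 20090 to 29550 and 22190 to 34180 CPM in cKO against 21300 to 27080 and 30600 to 35330 in controls. With the offset both were called lower, mt-Nd1 at log2 -0.44 (edgeR adjusted p = 0.0269) and mt-Nd4 at -0.51 (edgeR adjusted p = 0.0163).

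Of the 1 gene of complex III and the 3 of complex IV, 1 fell and none rose. mt-Cytb encodes a subunit of complex III, the complex that passes electrons from ubiquinol to cytochrome c. The level of mt-Cytb was 24280 to 33740 CPM in cKO and 30480 to 36730 in controls (log2 -0.30, SE 0.14, edgeR adjusted p = 0.0891). This gene was called only when cKO replicate 2 was left out, among the 8 fits that each left out 1 library (edgeR adjusted p = 0.0154). With the offset it was called lower at log2 -0.57 (edgeR adjusted p = 0.00527). In complex IV, the oxidase that reduces oxygen, mt-Co1 encodes the catalytic subunit and was the most abundant of all 37 genes. It was at 51530, 77940, 50440 and 52110 CPM in the cKO hearts, 77360 and 93860 in the floxed hearts, and 80740 and 96730 in the Cre hearts. The fall was 1.5-fold (log2 -0.59, SE 0.17, edgeR adjusted p = 0.0115), with cKO replicate 2 among the controls and the other 3 cKO hearts below them.

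Of the 2 copies of mt-Co1, the abundant one moved the other way. Gm29216, which matches part of that gene, was at 7855, 6939, 8123 and 10210 CPM in the cKO hearts, 2236 and 2640 in the floxed hearts, and 2815 and 3043 in the Cre hearts. It was 3.1-fold higher (log2 1.63, SE 0.13, edgeR adjusted p = 1.82e-05), with no overlap. Gm13340, on chromosome 2, which matches all 1545 bases at 97.61%, was at 4.621 to 8.739 CPM in cKO and 8.575 to 11.73 in controls and fell (log2 -0.67, SE 0.20, edgeR adjusted p = 0.0156). Summed with its copies, mt-Co1 fell by 0.44 on the log2 scale (SE 0.15, edgeR adjusted p = 0.03), and this call was lost when any 1 of 5 libraries was left out: cKO replicates 1, 3 and 4, floxed replicate 2 and Cre replicate 2 (highest edgeR adjusted p = 0.106). mt-Co2, the subunit that receives electrons from cytochrome c, was at 10560 to 18750 CPM in cKO and 11910 to 15190 in controls (log2 0.04, SE 0.19, edgeR adjusted p = 0.861). mt-Co3 was at 20550 to 30000 CPM in cKO and 18120 to 24610 in controls (log2 0.20, SE 0.15, edgeR adjusted p = 0.281). Summed with their copies both stayed uncalled, at 0.10 and 0.29. The copy of mt-Co3, Gm28437, was called higher (log2 0.44, edgeR adjusted p = 0.00984), and that of mt-Co2, Gm28661, was not (log2 0.14, edgeR adjusted p = 0.356). A list of 10 candidate copies set by name overlaps in part with the copies found by the search. Of these 10, 4 rose (40%) and 2 fell (20%) as deposited, beside 25.6% and 26.5% of all tested genes. With the offset 2 rose (20%) and 7 fell (70%), beside 20.4% and 24.5%. Calls of single copies with the offset are not given. With the offset mt-Co2 was called lower, at -0.51 as deposited and -0.45 summed (edgeR adjusted p = 0.0246 and 0.00623).

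The complex V genes differed from each other although 1 messenger RNA carries both. mt-Atp8 was at 120.7, 154.4, 141.1 and 59.91 CPM in the cKO hearts, 241.1 and 386.3 in the floxed hearts, and 304.6 and 352.2 in the Cre hearts. It was 2.7-fold lower (log2 -1.43, SE 0.30, edgeR adjusted p = 0.00592) and all 4 cKO hearts were below all controls. With the offset it was at log2 -2.50 (edgeR adjusted p = 0.00145). mt-Atp6 was at 18140, 26510, 21000 and 18140 CPM in the cKO hearts, 16910 and 18870 in the floxed hearts, and 16250 and 19430 in the Cre hearts, which overlap (log2 0.23, SE 0.14, edgeR adjusted p = 0.201; 0.06 summed with its copy). With the offset, the sum of mt-Atp6 and its copy was called lower (log2 -0.49, edgeR adjusted p = 0.0191). At 204 bases mt-Atp8 is shorter than the shortest of the nuclear genes used for the offset (243 bases), so that its corrected value is an extrapolation.

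Both rRNAs rose as deposited. mt-Rnr1, the RNA of the small subunit of the mitochondrial ribosome, was at 2391, 3764, 2399 and 3586 CPM in the cKO hearts, 1424 and 1523 in the floxed hearts, and 1378 and 1619 in the Cre hearts. It was 2.04-fold higher (log2 1.03, SE 0.16, edgeR adjusted p = 0.000445), and the lowest cKO heart was above the highest control. mt-Rnr2, the RNA of the large subunit, was at 3546, 6744, 3407 and 6192 CPM in the cKO hearts, 3172 and 3316 in the floxed hearts, and 2677 and 3520 in the Cre hearts. Its rise of 1.57-fold (log2 0.65, SE 0.24, edgeR adjusted p = 0.0441) rested on the high replicates 2 and 4, since replicates 1 and 3 lay at the level of the higher controls. It was lost when any 1 of 6 libraries was left out: cKO replicates 2 and 4 and each of the 4 controls (highest edgeR adjusted p = 0.129). Without cKO replicates 2 and 4 together, a pair singled out for these very rRNA levels, the log2 fold change of mt-Rnr2 was 0.14, while mt-Rnr1 remained called. With the offset mt-Rnr2 was at 0.52 and not called (edgeR adjusted p = 0.101), and mt-Rnr1 was at 0.65 (edgeR adjusted p = 0.00349). The labels name the library kit but not whether poly(A) RNA was selected or rRNA removed, so the levels of rRNA do not give its abundance in the cell.

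**Figure D3:**
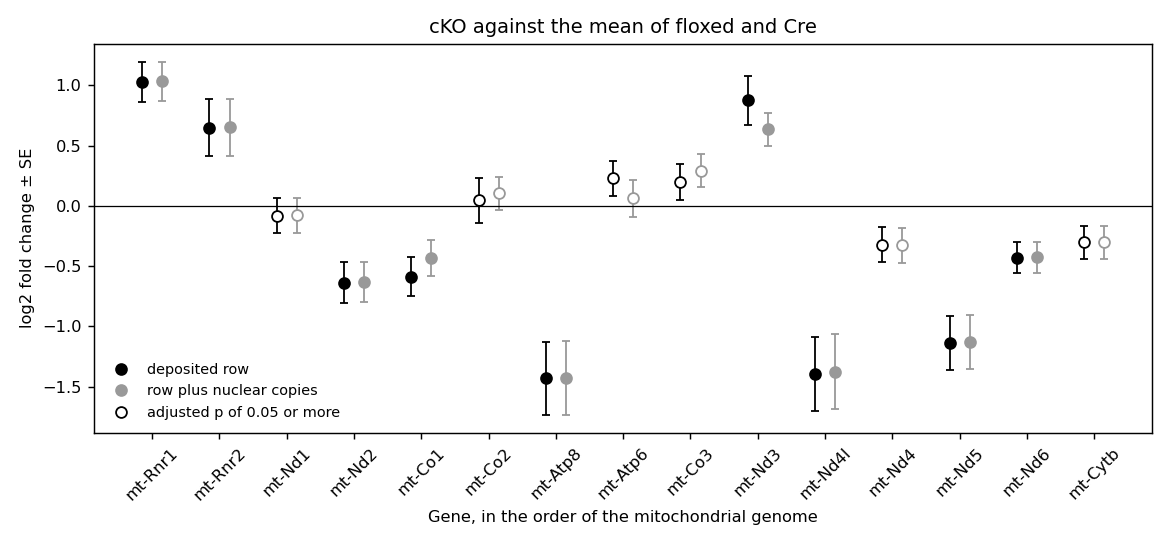
Log2 fold change of 15 mitochondrial genes, cKO against the mean of floxed and Cre, in genome order along the x axis, with bars of 1 SE. Black points are the deposited genes, grey points the sums with nuclear copies, and open points did not pass the threshold. mt-Rnr1, mt-Rnr2 and mt-Nd3 lie above 0 and mt-Atp8, mt-Nd4l and mt-Nd5 below -1.

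Transfer RNAs were barely captured. Of the 22 genes 13 were at 0 in every library, 9 had a count in at least 1, and 2, mt-Ts1 and mt-Te, passed the filter. mt-Ts1, the serine tRNA printed above, had 151, 17, 182 and 16 raw counts in the cKO hearts, 110 and 171 in the floxed hearts, and 125 and 162 in the Cre hearts. Replicates 2 and 4 of cKO were far below the rest, and replicates 1 and 3 were within or above the controls. The log2 difference of -0.60 (SE 0.88) did not pass the threshold (edgeR adjusted p = 0.6), and without replicates 2 and 4 it was 0.29. mt-Te, the glutamate tRNA, had 7 to 27 raw counts in cKO and 11 to 24 in controls (log2 0.09, SE 0.43, edgeR adjusted p = 0.877). mt-Tm, the methionine tRNA, was next by mean count, with at most 5 counts in any library. With the offset, which is an extrapolation for genes this short, mt-Ts1 was at log2 -1.59 and mt-Te at -0.998, and neither was called (edgeR adjusted p = 0.224 and 0.0633). Neither of the 2 tRNAs that passed the filter was thus called, and the other tRNA genes had too few counts to be tested.

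Within-library ratios of paired genes do not depend on the scaling of libraries, but change with a correction for length. For each of 4 pairs as deposited, all cKO hearts were on 1 side of all control hearts, and each had an exact two-sided permutation p = 0.02857 over 70 splits, the smallest possible with 4 against 4, with the same value after Benjamini-Hochberg adjustment over the 4 ratios. The pair on the messenger of complex V, mt-Atp8 to mt-Atp6, had ratios of 0.0067, 0.0058, 0.0067 and 0.0033 in the cKO hearts, 0.014 and 0.020 in the floxed hearts, and 0.019 and 0.018 in the Cre hearts. The log2 difference was -1.71, or -1.54 with the copy of mt-Atp6 added and none for mt-Atp8. The mt-Nd4l to mt-Nd4 ratio was 0.029, 0.043, 0.038 and 0.023 in the cKO hearts, 0.075 and 0.070 in the floxed hearts, and 0.068 and 0.076 in the Cre hearts, a log2 difference of -1.16. With the length and GC offset these differences were -2.26 and -1.95, still without overlap (exact two-sided permutation p = 0.02857 each, 0.05714 after adjustment over the 4 ratios).

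The mt-Rnr2 to mt-Rnr1 ratio, between RNAs cut from 1 precursor, was 1.48, 1.79, 1.42 and 1.73 in the cKO hearts, 2.23 and 2.18 in the floxed hearts, and 1.94 and 2.17 in the Cre hearts. The log2 difference was -0.41. With the offset it was -0.17, the groups overlapped and the exact two-sided permutation p was 0.1714. The mt-Nd6 to mt-Nd5 ratio, between genes that face each other on opposite strands, was 0.280, 0.210, 0.274 and 0.364 in the cKO hearts, 0.172 and 0.159 in the floxed hearts, and 0.167 and 0.159 in the Cre hearts. The log2 difference was 0.75. With the offset it was 0.11, again with overlap (exact two-sided permutation p = 0.6). Without any 1 of the control libraries its exact two-sided permutation p was 0.05714.

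**Figure D4:**
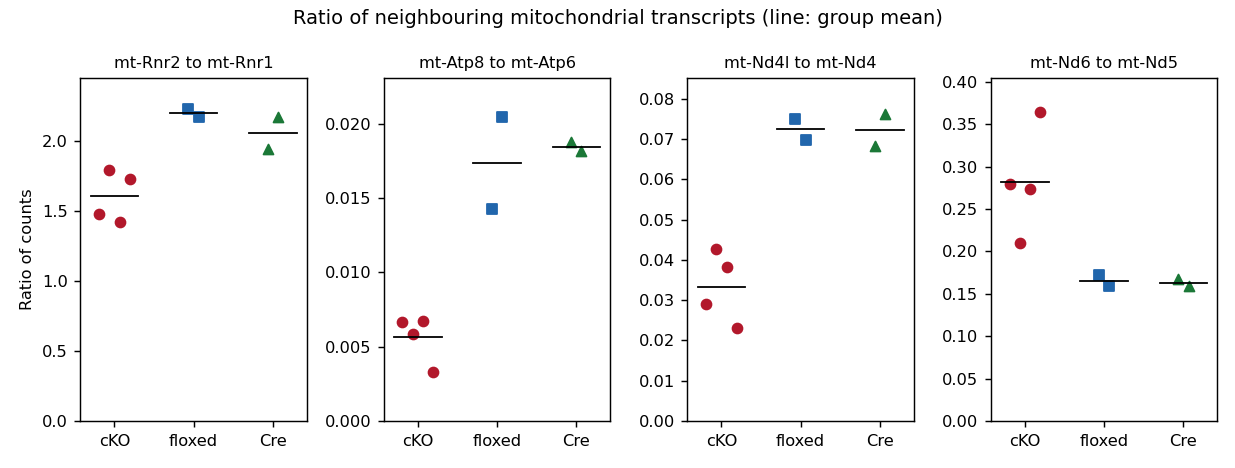
Ratio of counts of paired mitochondrial genes in each heart (y axis, a scale per panel that starts at 0) by genotype (x axis), with the group mean as a line. The cKO points lie below all control points for mt-Rnr2 to mt-Rnr1, mt-Atp8 to mt-Atp6 and mt-Nd4l to mt-Nd4, and above them for mt-Nd6 to mt-Nd5.

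As a share of all counts, the 37 genes made up 22.08, 29.29, 22.36 and 22.63% in the cKO hearts, 25.46 and 28.44% in the floxed hearts, and 26.88 and 29.08% in the Cre hearts. The 95% Wilson intervals were at most 0.039 percentage points wide, and cover counting error only. The groups overlapped through cKO replicate 2, the highest of all 8 hearts, and the other 3 cKO hearts were below every control. The mean was 24.09 ± 3.475% in cKO and 27.46 ± 1.625% in controls (SD, n = 4 each). With replicate 2 left out the difference grew from -3.37 to -5.11 percentage points. The nuclear copies added 5.613, 5.738, 6.021 and 6.191% in the cKO hearts, 3.68 and 4.611% in the floxed hearts, and 4.396 and 4.465% in the Cre hearts, more in every cKO heart than in any control. Genes and copies together came to 29.98 ± 3.398% in cKO and 31.75 ± 1.997% in controls, which overlap.

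**Figure D5:**
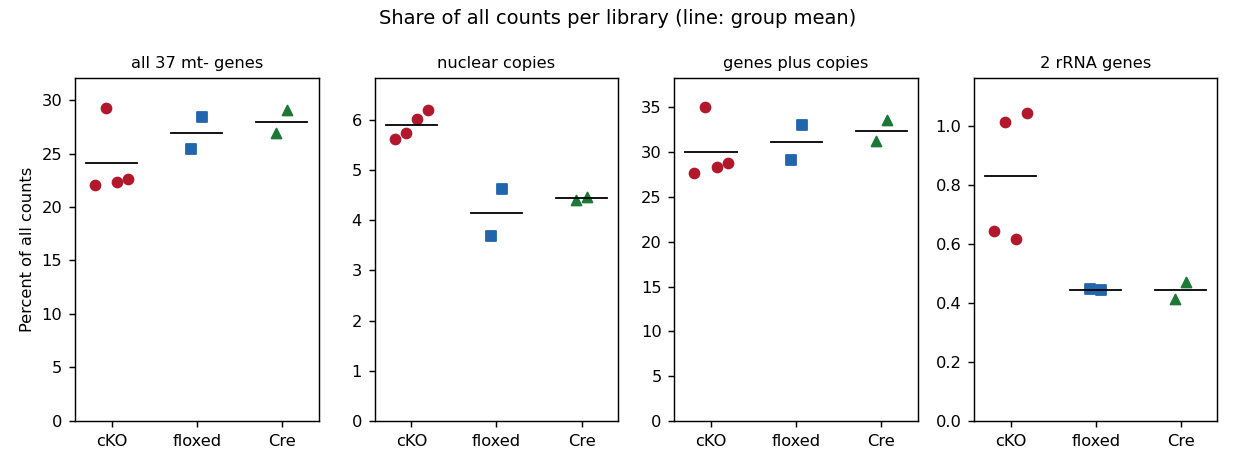
Percent of all counts per heart (y axis, from 0, a scale per panel) from the 37 mitochondrial genes, from their nuclear copies, from both and from the 2 rRNAs, by genotype (x axis) with the group mean as a line. The copies (5.613 to 6.191% against 3.68 to 4.611%) and the rRNAs (0.6167 to 1.045% against 0.4137 to 0.4726%) are higher in all 4 cKO hearts than in all 4 controls.

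By complex, the genes of complex I gave 8.26 ± 1.342% of all counts in cKO and 10.44 ± 0.498% in controls, and that of complex III gave 2.835 ± 0.301% and 3.213 ± 0.172%. Complex IV gave 9.979 ± 1.583% and 11.63 ± 0.899%, or 14.85 ± 1.515% and 14.95 ± 1.125% with the copies. Complex V was the one whose share was higher in every cKO heart, 1.946 to 2.576% against 1.668 to 1.819%. That order ended when the copies were added (2.117 to 2.983% against 2.019 to 2.438%). It also ended for the deposited genes per 100 nuclear coding counts (2.802 to 4.076 against 2.445 to 2.83). Groups overlapped for complexes I, III and IV with and without the copies. These shares were not corrected for length. The rRNAs gave 0.8304 ± 0.231% in cKO and 0.4446 ± 0.024% in controls, without overlap.

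Relative to the 13 coding genes alone, which leaves nuclear counts out, the groups separated more. Complex I was at 33.22 to 36.75% of coding mitochondrial counts in cKO against 38.07 to 39.45% in controls, and complex V was at 9.013 to 10.32% against 6.327 to 6.672%. With the copies added, complex I was at 28.28 to 32.11% against 34.33 to 35.76%, and complex IV at 49.01 to 54.72% against 46.66 to 48.38%. Single genes moved in both directions in this composition. mt-Nd5 was at 4.466 ± 0.704% of coding counts in cKO and 7.97 ± 0.504% in controls, mt-Co1 at 25.79 ± 0.842% and 30.79 ± 0.479%, and mt-Nd2 at 6.285 ± 0.446% and 7.737 ± 0.380%. mt-Co3 was at 10.94 ± 1.02% and 7.474 ± 0.352%, mt-Atp6 at 9.372 ± 0.596% and 6.322 ± 0.173%, and mt-Nd1 at 10.36 ± 0.55% and 8.654 ± 0.26% (SD, n = 4 each). In all 6 of these genes, and in mt-Co2, mt-Atp8, mt-Nd3 and mt-Nd4l, the groups did not overlap, with or without the copies. They overlapped on both bases for mt-Nd4, mt-Nd6 and mt-Cytb, the rest of the 13 coding genes. In CPM such separation was found for 49.3% of all tested genes. Shares of a whole are tied to each other, so these values show unequal change as counted and not which genes changed. They were not corrected for length. mt-Nd3, mt-Atp6, mt-Co2, mt-Co3 and mt-Nd1, with larger shares in cKO, are 348 to 957 bases long. With smaller shares, mt-Nd2, mt-Co1 and mt-Nd5 are 1038 to 1824 bases long, but mt-Atp8 and mt-Nd4l only 204 and 297.

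Per kilobase of transcript and with the copies added, the order of the levels also differed. In controls mt-Co1 was first at 58120 CPM per kb, followed by mt-Co2 (49160), mt-Co3 (42190), mt-Atp6 (34450) and mt-Cytb (29400). In cKO mt-Co2 (52810), mt-Co3 (51640) and mt-Co1 (42940) came first, and in both groups the ranges over hearts of neighbours in these orders overlapped. Within hearts, mt-Co1 was above mt-Co2 in every control and below it in every cKO heart. Values with the length and GC offset are not given for this order. mt-Nd5 was at 12330 CPM per kb in controls and 5616 in cKO. mt-Atp8 was last in both groups among the coding genes, at 1573 and 584 CPM per kb. The 2 rRNAs were at 1555 and 2003 CPM per kb in controls and 3180 and 3145 in cKO, for mt-Rnr1 and mt-Rnr2 in that order.

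Against each control group separately, the falls of mt-Nd2, mt-Co1, mt-Atp8, mt-Nd5 and mt-Nd4l were called both times as deposited. So were the rises of mt-Rnr1 and mt-Nd3. Summed with its copies, mt-Co1 was called against neither group (edgeR adjusted p = 0.089 against floxed and 0.0587 against Cre). Against floxed 2 of 17 genes rose and 6 fell, 47.1% called beside 42.9% of all genes (19.8% up and 23.1% down). Against Cre 2 rose and 5 fell, 41.2% called beside 42.4% of all genes (19.6% up and 22.8% down). These comparisons share the cKO hearts. With the offset the rise of mt-Nd3 was called in neither comparison and that of mt-Rnr1 in both. mt-Nd6 was called against floxed (edgeR adjusted p = 0.0259) and not against Cre (edgeR adjusted p = 0.081), and mt-Rnr2 against neither (edgeR adjusted p = 0.123 and 0.0938). Between Cre and floxed, which also tests the difference between the comparisons, 0 of the 17 genes were called by edgeR, DESeq2 or limma voom, and 0 had an unadjusted edgeR p under 0.05. Of all genes 0.0981% were called in that contrast, 0.00654% up and 0.0916% down. Counts of falls changed with single hearts. Against Cre they were 0 without Cre replicate 2, 3 without Cre replicate 1 and 8 without cKO replicate 2, and against floxed 1 without floxed replicate 2, 2 without floxed replicate 1 and 3 without cKO replicate 3.

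Nuclear genes for transcription and upkeep of mitochondrial DNA split. Of 27 genes 10 fell and 3 rose, beside 26.5% down and 25.6% up for all genes tested, and the median log2 fold change was -0.02 beside 0.04. The 48.1% called in either direction is near the 52.1% of all genes. With the length and GC offset 3 rose (11.1%) and 11 fell (40.7%), beside 20.4% up and 24.5% down for all genes tested. Tfam, which packages the DNA and starts its transcription, was at 23.24, 17.63, 23.15 and 17.62 CPM in the cKO hearts, 31.85 and 36.73 in the floxed hearts, and 32.44 and 36.96 in the Cre hearts, a 1.69-fold fall (edgeR adjusted p = 0.000421). Tfb2m, the partner of the polymerase at promoters, was 2.1-fold lower, at 19.01 to 29.91 against 45.19 to 52.58 CPM. Twnk, the helicase of mitochondrial DNA, was 1.44-fold lower, and Rrm2b, a ribonucleotide reductase subunit that supplies nucleotides, 2.59-fold. Ppargc1a, a coactivator of mitochondrial biogenesis, fell 2.57-fold and Gabpa, a transcription factor of nuclear mitochondrial genes, 1.58-fold. All 4 cKO hearts were below all controls for each of these 6 genes, an order found for 25.9% of all tested genes. The 6 were named as preset regulators or for a small p, so this order does not describe the list. The polymerases themselves did not pass the threshold: Polrmt, for RNA, was at 25.5 to 30.42 CPM against 26.67 to 33.18 (log2 -0.10, edgeR adjusted p = 0.406), and Polg, for DNA, at 49.1 to 58.19 against 51.98 to 60.49 (log2 -0.06, edgeR adjusted p = 0.598). The 3 that rose without the offset are named here after their values were seen. Tk2, the mitochondrial thymidine kinase, was at 10.36 to 12.94 against 7.061 to 8.605 CPM (1.45-fold). Slc25a33, a pyrimidine nucleotide carrier, was at 26.11 to 28.13 against 14.53 to 24.4 CPM (1.35-fold). Primpol, a primase and polymerase, was at 3.425 to 4.592 against 1.866 to 3.567 CPM (1.54-fold). The edgeR adjusted p-values were 0.00275, 0.0117 and 0.033 in this order, and the groups overlapped for Primpol alone of these 3.

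Of 33 genes for processing, stability and decay of mitochondrial RNA 15 fell (45.5%) and 2 rose (6.06%), with a median of -0.18. The 51.5% called is level with the 52.1% of all genes tested. Lrpprc, which binds and stabilises mitochondrial messenger RNAs, was at 93.48, 68.58, 84.08 and 68.43 CPM in the cKO hearts, 195.3 and 189.7 in the floxed hearts, and 174.5 and 186 in the Cre hearts, a 2.37-fold fall (log2 -1.24, SE 0.11). Its binding partner Slirp moved the other way, at 54.41 to 61.13 CPM in cKO and 30.82 to 36.11 in controls, a 1.73-fold rise (log2 0.79, SE 0.09). Pnpt1, an exonuclease of the mitochondrial RNA degradation machinery, fell 1.94-fold, and Grsf1, an RNA-binding protein of mitochondrial RNA granules, 1.99-fold. The other gene that rose, named after its value was seen, was Trmu, a tRNA-modifying enzyme (1.33-fold, edgeR adjusted p = 0.0179). With the length and GC offset 19 of the 33 fell and 1 rose, 60.6% called beside 44.9% of all genes. Slirp and Trmu were thus not both called higher with the offset, and their single values with it are not given.

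Nuclear genes whose products assemble with the mitochondrial subunits were mostly higher as deposited. Of 36 complex I genes 29 rose and 2 fell (median 0.72), of 9 complex III genes 6 rose and 1 fell (0.29), of 14 complex IV genes all 14 rose (0.74) and of 15 complex V genes 11 rose and 1 fell (0.60). For all genes tested 25.6% rose, 26.5% fell and the median was 0.04. Examples are Ndufb7 (2.49-fold up), Ndufa2 (2.48-fold) and Ndufa11 (1.99-fold) of complex I, and Uqcrq (2.6-fold), Uqcr11 (2.55-fold) and Uqcr10 (1.78-fold) of complex III. In complex IV Cox7a2 rose 2.01-fold, Cox5b 1.9-fold, Cox8b 1.86-fold and Cox4i1 1.76-fold, and in complex V Atp5e rose 2.44-fold, Atp5k 1.88-fold, Atp5j2 1.75-fold and Atp5l 1.65-fold. Ndufs1, which holds iron-sulfur clusters of complex I, and Uqcrc2, a core protein of complex III, fell 2.48-fold and 1.68-fold. Complex II, which has no mitochondrially encoded subunit, had 3 falls and 1 rise among 4 genes, with Sdha 2.44-fold lower, Sdhd 1.39-fold and Sdhc 1.31-fold lower and Sdhb 1.24-fold higher.

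Fewer of these genes rose when length was corrected for. With the length and GC offset 16 rose and 6 fell in complex I (median 0.20), 2 rose and 4 fell in complex III (-0.13), 5 rose and 3 fell in complex IV (0.01), and 6 rose and 3 fell in complex V (0.02). Rises were thus 44.4, 22.2, 35.7 and 40.0% of complexes I, III, IV and V in that order, beside 20.4% of all genes with the offset. Falls were 16.7, 44.4, 21.4 and 20.0% in the same order, beside 24.5%. Of the 4 complex II genes 0 rose and 3 fell with the offset (median -0.55), so that Sdhb was not called higher. Under the same offset, of the mitochondrial genes as deposited mt-Rnr1 was the 1 called up and 10 were called down, so that no mitochondrial coding gene was then called higher.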

How the data were processed

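Per the labels, TRIzol was used to isolate total RNA of mouse hearts and a NEBNext Ultra kit to build libraries. The authors deposited 1 table of estimated counts (expected counts) per gene, with 71.95 to 76.34% whole values in a library (tolerance 1e-06). Listed in the submitters' processing notes are mm10, GRCm38, DESeq2 and STAR 2.5.1b. The counting program, annotation and strand setting were not given in the sources used here. Totals were 17509564 to 25833259 counts, and the Wilson interval of the mitochondrial share was at most 0.039 percentage points wide.

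Counts were rounded, since the test had been planned for whole counts. Symbols, positions and lengths came from GENCODE M21 (563 of 45706 identifiers had no symbol). Genes were filtered by filterByExpr (15289 kept) and scaled by TMM. The 8 libraries were fitted with edgeR 4.0.16 in R 4.3.3 (robust quasi-likelihood, 3 group means, 5 residual degrees of freedom, adjusted p of 0.05). Ratios were tested with exact two-sided permutation tests (scipy 1.17.1). Nuclear copies were found with BLAST 2.17.0. Values are TMM-scaled CPM, with mean ± SD over libraries, and p-values rest on the spread between hearts. On simulated counts of 14932 genes for the main contrast, 71.7% of 92 genes changed by 1 on the log2 scale and 92.8% of 97 changed by 2 were recovered, and 7.14% of calls were false.

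The members and lists were chosen with earlier results of these data known. Named are all coding and rRNA genes, tRNAs that were called or were among the 3 highest by mean count, up to 4 called genes with the smallest p of each related list (mean of at least 1 CPM), and 8 preset regulators. Alternatives were other scalings, DESeq2 1.42.0, limma voom (3.58.1), other filters, a replicate block, pooled controls, a length and GC offset (mgcv 1.9.3), sums with nuclear copies, and leaving out libraries. The sums in the fit, the offset in ratios, a block by library-name number, and leaving out cKO replicates 2 and 4 together, were chosen after seeing the data.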

Additional observations from a re-analysis of the deposited data

Results flagged for a closer look

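In 3 of 30 sets of 4 values examined, 1 library lay far from the other 3 by Dixon's test (critical value 0.829 for 4 samples), which chance does in about 1 set of 20. In each the library was cKO replicate 2, and the high one. The ratio of its gap to the range was 0.9393 for mt-Co1 in CPM, 0.9237 for the share of all 37 mitochondrial genes and 0.9533 for the share of the 13 coding genes. These sets overlap in the genes they hold.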

How the results depend on the processing

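Over 36 alternatives, mt-Rnr1 was called up and mt-Nd2, mt-Atp8, mt-Nd4l and mt-Nd5 were called down in all 36, mt-Nd3 up in 32, mt-Co1 and mt-Nd6 down in 30 each, and mt-Rnr2 up in 17. Library size alone called 5 genes up. It and upper-quartile scaling moved the median log2 fold change of all genes to 0.17 and 0.16, and mt-Nd1 to 0.041 and 0.032. The length and GC offset called 1 up and 10 down (1 and 11 for the sums), and reversed mt-Co2 (-0.51; sum -0.45), mt-Atp6 (-0.33; sum -0.49), mt-Co3 (-0.27; sum -0.18), mt-Nd3 (-0.056; sum -0.29; -0.17 against floxed) and mt-Te (-0.998; sum -0.997). It also left 1 rise against floxed and 1 against Cre, and ratio differences of -0.17 for mt-Rnr2 to mt-Rnr1 and 0.11 for mt-Nd6 to mt-Nd5 (exact permutation p = 0.1714 and 0.6). Without both Cre libraries 1 gene was called up and mt-Te was at -0.21. Without cKO replicates 2 and 4, 1 was called up in each comparison and 9 down against Cre, with mt-Ts1 at 0.29 (sum 0.29) and mt-Co2 at -0.33 (sum -0.057). Upper-quartile scaling left 3 falls against floxed, and no filter or a fit of cKO and floxed alone left 1 rise.

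Leaving out 1 library at a time, which leaves a control group with 1 heart assumed to vary like the others, gave a log2 fold change of -0.13 to 0.16 for mt-Co2, -0.15 to 0.33 for mt-Te (sum -0.16 to 0.33) and -0.063 to 0.15 for the sum of mt-Atp6. It gave 1 to 2 rises and 1 to 8 falls against floxed, and 1 to 3 rises and 0 to 8 falls against Cre. The log2 difference of mt-Nd6 to mt-Nd5 was 0.62 to 0.89, with an exact permutation p = 0.05714 without any 1 control. The causes of these changes were not tested. The replicate block, in which samples share only a number (correlations of deviations between same-numbered hearts -0.108 to 0.133), changed no call among the 15 genes in the main contrast, with mt-Nd1 at 0.066 and mt-Te at -0.40. Title numbers 3 and 4 occur in cKO alone. The library names number the floxed hearts 2 and 3 instead. By those numbers the correlations were -0.108 to 0.139, and a replicate block, chosen after seeing the data, changed no call among the 15 genes in the main contrast, put mt-Nd1 at 0.00026 and mt-Te at -0.12, and left 3 falls against floxed. Capture of tRNAs limits what can be said of them.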
